A study of Mus musculus with 6 samples.

Results

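The interferon regulatory factor (IRF) genes were followed in sorted CD4+YFP+CD25+ Tregs by bulk RNA-Seq. The 8 members were the genes named Irf1, Irf2, Irf3, Irf4, Irf5, Irf7, Irf8 and Irf9. They were chosen by symbol from a table of 13709 gene rows, and each symbol matched 1 row. Tregs are CD4+ T cells that express Foxp3 and restrain other T cells. The 3 WT samples came from Foxp3Cre mice and the 3 KO samples from Foxp3Cre Zfp335fl/fl mice, all C57BL/6 per the labels and 2 weeks old per the study's methods. Both genotypes carry a YFP-Cre fusion made from the Foxp3 locus, which in KO mice deletes the zinc finger gene Zfp335 in cells that express Foxp3. Because the Tregs had developed in whole animals of either genotype, changes that start in the cell and changes that come from its surroundings cannot be told apart. The labels name both lymph nodes and spleen as the source, and whether a sample was 1 mouse or a pool was not stated, so p-values measure the spread between these samples.

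IRFs are transcription factors that share a DNA-binding domain and bind repeats of the bases GAAA, as in the interferon-stimulated response element (ISRE). Irf3 and Irf7 are switched on by phosphorylation after nucleic acid sensing and induce type I interferons, and Irf9 is the DNA-binding part of the complex ISGF3, which also holds Stat2 and turns on antiviral genes. Irf1 is induced by interferon-gamma and shares its sites with Irf2, which often acts as its antagonist. Irf4 and Irf8 are largely restricted to immune cells and bind DNA with partners such as PU.1 (Spi1) and Batf, and Irf4 is known as a factor that Tregs need for their effector program. Irf5 acts downstream of Toll-like receptors and is best known from myeloid and B cells.

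Library totals ranged from 32032631 to 40728419 counts, and the 8 genes held 3628 (Irf5) to 91349 (Irf1) counts over the 6 samples. All 8 passed the low-count filter, as did 13594 genes in all. Zfp335 itself was at 94.3 to 103 CPM (counts scaled to the TMM-adjusted library size, as edgeR gives them) in WT and at 37.0 to 40.2 CPM in KO, with no overlap. WT replicate 3 stood apart from the other WT samples on the second principal component (-58.9, against 22.1 and 34.4). The median squared difference between its counts and theirs, scaled by library totals, was 29.8 and 30.5 times that expected from sampling alone. This ratio of squares was 10.5 between WT replicates 1 and 2 and 5.32 to 6.29 between KO samples. Member and list results whose calls or direction change without WT replicate 3 are therefore also given without it. The defining genes of the sorted cells were present in every sample, with Foxp3 at 642 to 1190 CPM in WT and 460 to 472 CPM in KO, Cd4 at 646 to 814 CPM and Il2ra (CD25) at 904 to 1302 CPM over all samples.

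Calls required a difference between KO and WT of more than 1.5-fold (0.585 on the log2 scale), an edgeR p under 0.05 and an adjusted p under 0.1. Of the 8 IRF genes, Irf1 was called higher in KO, none was called lower and 7 were not called. Over all genes tested, 24.4% were called, 11.9% higher and 12.5% lower. DESeq2 called the same single member. The p was under 0.05 and the adjusted p under 0.1 for 4 members, namely Irf1 and Irf8, which were higher in KO, and Irf3 and Irf4, which were lower. An adjusted p under 0.1 was found for 47% of all genes. In the same 4 members the KO and WT samples did not overlap, as in 53.8% of all genes tested (26.2% higher and 27.6% lower in KO). These shares of the members lie near those of the whole table. The members differed in direction, with log2 fold changes from -0.58 for Irf3 to 0.99 for Irf1, beside a median of -0.04 over all genes.

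**Figure D1:**
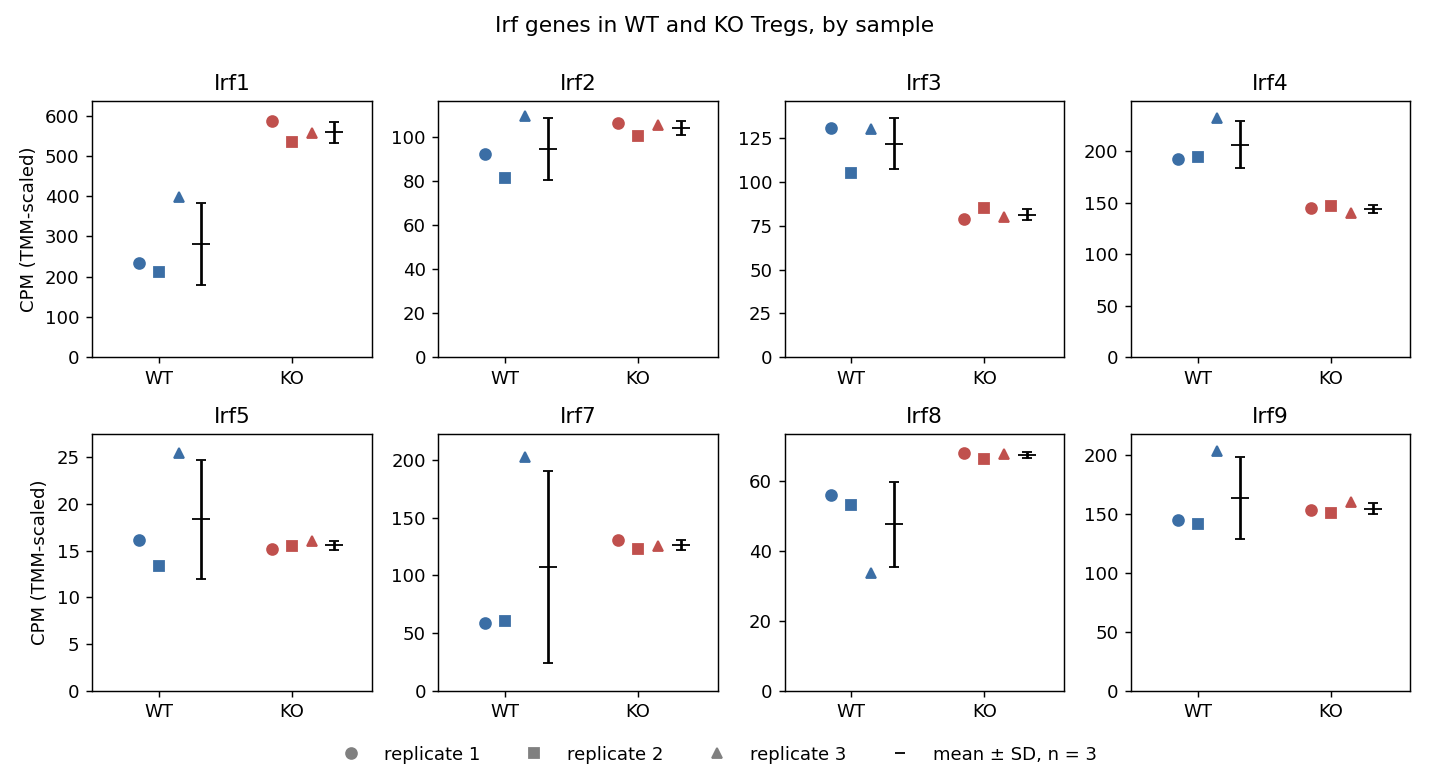
CPM of each IRF gene in each sample, with WT in blue, KO in red, a marker shape for each replicate number, and the mean ± SD (n = 3) as a black bar. The 3 KO samples lie close together in every panel, and WT replicate 3 (blue triangle) is the highest WT sample for 6 genes, close to the highest for Irf3 (130.3 against 130.6 CPM) and the lowest for Irf8.

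Irf1, the activator induced by interferon-gamma, rose. It was at 234, 211 and 399 CPM in WT replicates 1 to 3 and at 587, 534 and 556 CPM in KO replicates 1 to 3. Every KO sample was above every WT sample, and WT replicate 3 lay between the other WT samples and the KO samples. WT averaged 281.5 ± 102 CPM and KO 559 ± 26.5 CPM (SD, n = 3 each), a log2 fold change of 0.99 (SE 0.22, 95% interval 0.48 to 1.501, edgeR adjusted p 0.00963). Without WT replicate 3 the log2 fold change was 1.32 (SE 0.06, adjusted p 3.12e-10). Irf1 was called in each of the 13 other fits that kept these cutoffs, at 0.82 to 1.32, but it was not called when the test itself was made against a fold change of 1.5 (glmTreat adjusted p 0.123).

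Irf2, the antagonist of Irf1, was not called. Its level was 92.4, 81.4 and 109.6 CPM in WT, against 106, 100.3 and 105.6 CPM in KO, and the groups overlapped. The log2 fold change was 0.14 (SE 0.11, 95% interval -0.11 to 0.39, adjusted p 0.347). Without WT replicate 3 it was 0.25 (adjusted p 0.00708), below the fold cutoff. Since both proteins bind the same sites, their transcripts were also compared as a ratio, per kilobase of the longest transcript in GENCODE M21. The ratio of Irf1 to Irf2 was 4.70, 4.82 and 6.75 in WT and 10.2, 9.89 and 9.77 in KO, so that the groups did not overlap. The KO mean was 1.84 times the WT mean, with an exact two-sided permutation p of 0.1, which is the smallest that 3 against 3 samples can give.

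The sequence before the start of transcription is shown for the 3 members whose RefSeq promoter window held a match to a motif of the interferon and NF-kappaB pathways, since these are the sites through which IRF genes are known to be induced. Windows of 300 bases (250 before and 50 after a start, GRCm38.p6) were found for all 8 members, with 2 windows each for Irf1, Irf8 and Irf9 and 1 for each of the others. They were searched on both strands for the ISRE (GAAA and GAAA with 2 bases between), the gamma-activated site (GAS, TTCNNNGAA) of interferon-gamma signaling, the ETS-IRF composite element (EICE, GGAA and GAAA with 2 bases between) of PU.1 with Irf4 or Irf8, and the NF-kappaB consensus. Among 32851 windows of the same length in the table, 3.44% held the ISRE, 8.30% the GAS, 2.72% the EICE and 4.51% the NF-kappaB motif. The windows of Irf3, Irf4, Irf5, Irf7 and Irf9 and the second windows of Irf1 and Irf8 held none of the 4. Only exact matches were searched. The bases searched before the Irf7 start (141266425 to 141266674, minus strand) lie partly inside its RefSeq gene, which ends at 141266499. Those before the Irf5 start (29526375 to 29526624) lie inside its RefSeq gene, which starts at 29526130. The sequence before the outer start was thus not searched for Irf5 and was searched only in part for Irf7. The 250 bases before the start are printed 5′ to 3′ with the matches in capitals.
Irf1: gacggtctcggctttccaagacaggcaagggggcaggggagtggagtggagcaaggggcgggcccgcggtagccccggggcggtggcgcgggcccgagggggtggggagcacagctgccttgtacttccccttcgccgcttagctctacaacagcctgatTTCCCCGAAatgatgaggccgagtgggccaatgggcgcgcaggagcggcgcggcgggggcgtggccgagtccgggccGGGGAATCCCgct
Irf2: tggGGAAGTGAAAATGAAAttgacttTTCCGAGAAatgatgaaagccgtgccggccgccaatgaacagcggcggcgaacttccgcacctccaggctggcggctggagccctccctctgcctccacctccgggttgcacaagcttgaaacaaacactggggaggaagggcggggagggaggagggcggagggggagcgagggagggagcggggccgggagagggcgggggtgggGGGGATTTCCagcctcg
Irf8: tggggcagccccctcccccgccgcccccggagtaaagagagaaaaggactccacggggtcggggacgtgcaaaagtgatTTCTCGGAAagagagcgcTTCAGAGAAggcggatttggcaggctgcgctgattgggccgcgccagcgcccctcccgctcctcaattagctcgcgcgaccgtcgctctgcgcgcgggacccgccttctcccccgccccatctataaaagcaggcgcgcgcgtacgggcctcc

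Irf1 (chr11:53769764-53770013, plus strand) held a GAS at -90 to -82 relative to the start and an NF-kappaB match at -13 to -4. Irf2 (chr8:46739495-46739744, plus strand) held an EICE at -247 to -238 that overlaps an ISRE at -241 to -232, a GAS at -224 to -216 and an NF-kappaB match at -17 to -8. Irf8 (chr8:120736108-120736357, plus strand) held a GAS at -171 to -163 and another at -153 to -145. These matches describe the letters in the window, and no binding was measured.

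Irf3 and Irf7 are the sensors' factors, Irf3 made constitutively and Irf7 inducible. Irf3 lay at 131, 105 and 130.3 CPM in WT, against 79.1, 85.0 and 80.3 CPM in KO. The lowest WT sample was above the highest KO sample, and KO had 66.8% of the WT mean. The fitted log2 fold change was -0.582 (SE 0.10, 95% interval -0.81 to -0.36, adjusted p 0.00256), just inside the cutoff of 0.585, so it was not called. It was called with library totals alone (-0.62), without WT replicate 2 (-0.68) and without KO replicate 2 (-0.61). Irf3 (chromosome 7, 44997648 to 45002848) overlaps Bcl2l12 on the opposite strand in GENCODE M21, and the strand setting of the counting was not stated. Bcl2l12 was at 23.1 ± 2.42 CPM in WT, against 20.1 ± 2.13 CPM in KO (adjusted p 0.243).

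Among the 8 members, the log2 fold change of Irf7 moved most when WT replicate 3 was left out. It was at 58.5, 60.4 and 203 CPM in WT, against 131, 122.5 and 126 CPM in KO. The KO samples were above WT replicates 1 and 2 and below WT replicate 3, which held 3.42 times the mean of the other WT samples. Over all 6 samples the log2 fold change was 0.24 (SE 0.45, 95% interval -0.80 to 1.27, adjusted p 0.715). Without WT replicate 3 Irf7 was called higher, at 1.08 (SE 0.06, adjusted p 3.73e-09), in a fit that called 26.8% of all genes, with KO at 2.13 times the mean of the other two WT samples. The value turned to -0.06 without WT replicate 1 and to -0.05 without WT replicate 2. Irf7 (chromosome 7, 141263183 to 141266499) overlaps Phrf1 on the opposite strand in GENCODE M21, which was at 154 ± 7.78 CPM in WT, against 167 ± 2.79 CPM in KO. The ratio of Irf7 to Irf3 per kilobase was 0.281, 0.360 and 0.977 in WT and 1.036, 0.903 and 0.981 in KO, with overlap and an exact two-sided permutation p of 0.2.

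Irf9, the DNA-binding part of ISGF3, was at 145, 141.5 and 204 CPM in WT, against 153, 151 and 159.9 CPM in KO. WT replicate 3 was again the highest sample, and the KO samples lay between it and the other WT samples. The log2 fold change was -0.08 (SE 0.14, 95% interval -0.40 to 0.24, adjusted p 0.688), and it was 0.11 (adjusted p 0.143) without WT replicate 3. Irf9 (chromosome 14, 55603985 to 55610030) overlaps Rnf31 on the same strand in GENCODE M21, so some of its reads may belong to that gene, which was at 102 ± 15.2 CPM in WT, against 94.6 ± 4.28 CPM in KO. Of the 8 members, 3 had every KO sample above WT replicates 1 and 2 and below WT replicate 3, as did 4.49% of all genes tested. These were Irf2, Irf7 and Irf9.

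Irf4, the factor of effector Tregs, was lower in KO by less than the cutoff. Its values were 192, 194.5 and 233 CPM in WT, against 144.5, 147 and 140.1 CPM in KO. No KO sample reached the lowest WT sample, and KO had 69.7% of the WT mean. The fitted log2 fold change was -0.52 (SE 0.09, 95% interval -0.72 to -0.32, adjusted p 0.00282), and over the 13 other fits that kept these cutoffs it stayed between -0.57 and -0.43 with an adjusted p of 4.06e-06 to 0.0201. The test against a fold change of 1.5 (glmTreat) gave an adjusted p of 1. Irf4 (chromosome 13, 30749233 to 30766981) overlaps no other gene in either annotation.

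Irf8, which is best known from dendritic cells and B cells, was higher in KO by less than the cutoff. It was at 56.1, 53.2 and 33.7 CPM in WT, against 67.9, 66.3 and 67.8 CPM in KO, with no overlap. Here WT replicate 3 was the lowest sample, at 0.617 times the mean of the other WT samples. The log2 fold change was 0.50 (SE 0.17, 95% interval 0.09 to 0.90, adjusted p 0.0556). It was 0.63 without WT replicate 1, where it was called (adjusted p 0.0399), and 0.30 without WT replicate 3 (adjusted p 0.00197). Without KO replicate 1, 2 or 3 the adjusted p was 0.14, 0.124 and 0.134, above the cutoff of 0.1. The ratio of Irf4 to Irf8 per kilobase was 2.49, 2.66 and 5.02 in WT and 1.55, 1.61 and 1.504 in KO, and the KO mean was 0.459 times the WT mean (exact two-sided permutation p 0.1, the smallest possible).

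Because Irf8 and Irf5 are also expressed by myeloid and B cells, the markers of those cells are given beside them. For the marker lists below, the shares of all genes were 11.9% called higher and 12.5% lower. Of 15 myeloid and dendritic cell markers tested, 9 were called higher in KO and none lower. Their summed level was 22.5 to 24.9 CPM in WT and 61.4 to 67.3 CPM in KO. Itgax, which encodes CD11c, was at 0.516, 0.731 and 0.0601 CPM in WT, against 5.75, 8.86 and 6.47 CPM in KO, and the calprotectin genes S100a8 and S100a9 were not counted in WT and reached 2.10 ± 0.76 and 2.18 ± 0.47 CPM in KO. The 6 markers of the list that were not called were Flt3, Xcr1, Zbtb46, Siglech, Ly6d and Fcer1g (named after their values were seen), and Zbtb46, which marks conventional dendritic cells, was at 1.36, 0.579 and 3.49 CPM in WT, against 1.97, 1.25 and 1.79 CPM in KO. Of 12 B cell markers tested, Cd22 and Jchain were called higher and Cd79b and Ighm lower, Ms4a1 was at most 1.37 CPM, and the sum was 453 to 728 CPM in WT and 198 to 213 CPM in KO, most of it Ighm. In bulk samples fewer cells of a type and less RNA per cell cannot be told apart, and the part of these cells in the Irf8 values was not tested. Of 6 NK and CD8 T cell markers, 4 were called higher, with a sum of 16.4 to 21.8 CPM in WT and 48.2 to 49.2 CPM in KO.

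Irf5 was the least abundant member and was not called. Its values were 16.1, 13.4 and 25.5 CPM in WT, against 15.2, 15.5 and 16.1 CPM in KO, and all 3 KO samples lay within the range of WT. The log2 fold change was -0.24 (SE 0.22, 95% interval -0.75 to 0.28, adjusted p 0.443) and 0.07 (adjusted p 0.649) without WT replicate 3. Irf5 (chromosome 6, 29526130 to 29541869) overlaps Tnpo3 on the opposite strand, and the strand setting of the counting was not stated. Tnpo3 was at 116.7 ± 8.81 CPM in WT, against 141.3 ± 5.54 CPM in KO, without overlap (edgeR adjusted p 0.0225, not called). The part of Tnpo3 reads in the Irf5 values was not tested. Irf1 (chromosome 11, 53770014 to 53778374) overlaps the protein-coding model Gm17334 on the opposite strand in GENCODE M21. Irf2 (chromosome 8, 46739745 to 46847458) overlaps Gm models that are not protein-coding. Irf8 (chromosome 8, 120736358 to 120756694) overlaps the protein-coding model Gm20388 on the same strand, so some of its reads may belong to that model.

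**Figure D2:**
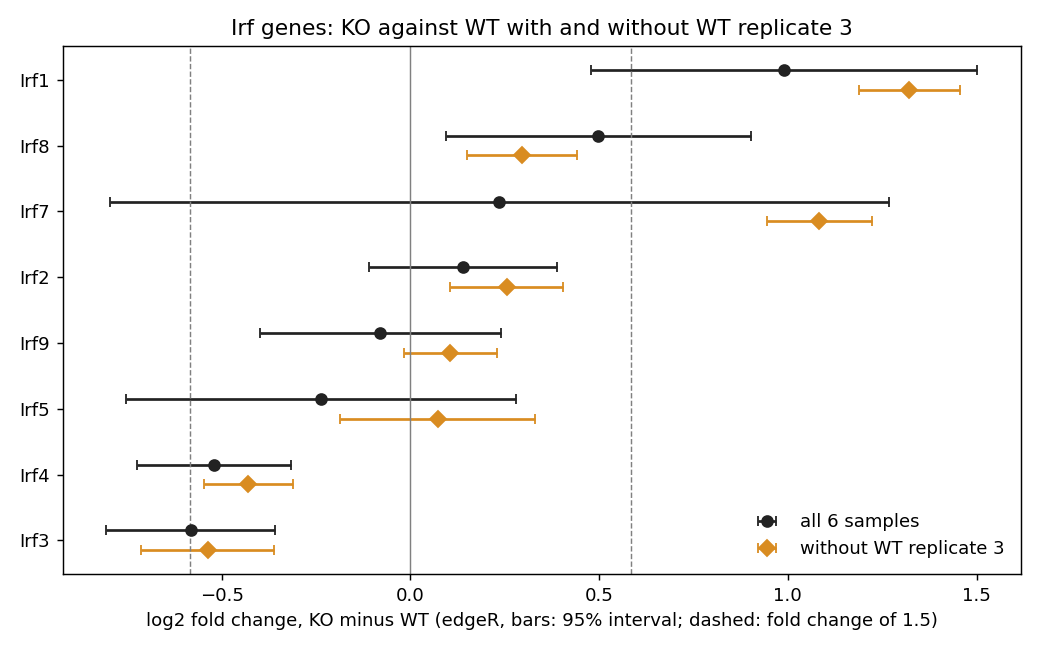
Log2 fold change of KO against WT for each IRF gene (points) with its 95% interval (bars), from all 6 samples (black) and without WT replicate 3 (orange), with dashed lines at a fold change of 1.5. Without that sample Irf7 moves from 0.24 to 1.08 and its interval narrows, while Irf3 and Irf4 stay below 0.

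**Figure D3:**
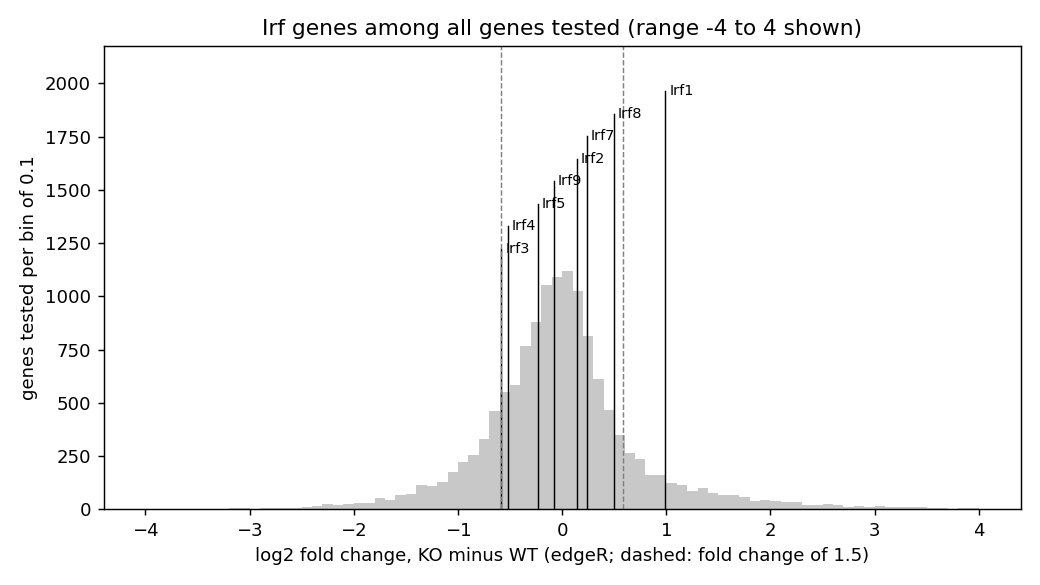
Number of genes tested per bin of 0.1 in log2 fold change (grey), with a line at the value of each IRF gene and dashed lines at a fold change of 1.5. The 131 genes beyond -4 or 4 are not drawn, Irf1 is the member outside the dashed lines, and Irf3 lies just inside the left line.

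The spread within genotypes differed. The coefficient of variation of the 8 members was 11.03% (Irf4) to 77.3% (Irf7) in WT and 1.32% (Irf8) to 4.74% (Irf1) in KO. The fit uses a common estimate of the spread for both genotypes.

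Levels of different IRF genes were compared per kilobase of the longest transcript. In WT, Irf1 was the highest at 132 ± 47.8 CPM per kilobase (SD, n = 3), followed by Irf3 at 60.1 ± 7.20, Irf4 at 43.3 ± 4.78, Irf9 at 42.2 ± 9.04, Irf7 at 33.1 ± 25.6, Irf2 at 23.8 ± 3.58, Irf8 at 13.8 ± 3.51 and Irf5 at 8.19 ± 2.84. Samples of Irf4 and Irf9, of Irf9 and Irf7, of Irf7 and Irf2, and of Irf8 and Irf5 overlapped. In each of these pairs WT replicates 1 and 2 had the same order and WT replicate 3 the opposite one. The differences between neighbors were not tested. In KO the order was Irf1 at 262 ± 12.4, Irf3 at 40.1 ± 1.53, Irf9 at 39.98 ± 1.21, Irf7 at 38.98 ± 1.31, Irf4 at 30.2 ± 0.74, Irf2 at 26.2 ± 0.84, Irf8 at 19.4 ± 0.26 and Irf5 at 6.95 ± 0.20 CPM per kilobase. Irf3, Irf9 and Irf7 overlapped in KO, and the other neighbors did not. Irf1 made up 36.4% of the summed level of the 8 genes in WT and 56.4% in KO, Irf3 17.4% and 8.67%, and Irf4 12.5% and 6.52%. With the mean length of all transcripts of a gene, 4 of the 8 kept their place in the WT order, among them Irf1 and Irf3 at the top and Irf8 and Irf5 at the bottom, so the order in the middle depends on which transcript is used. In KO that length left Irf1 in place 1 and put Irf7 in place 2, Irf2 in 3, Irf9 in 4 and Irf3 in 5. The place of Irf3 and the closeness of Irf3, Irf9 and Irf7 in KO therefore depend on the length chosen.

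**Figure D4:**
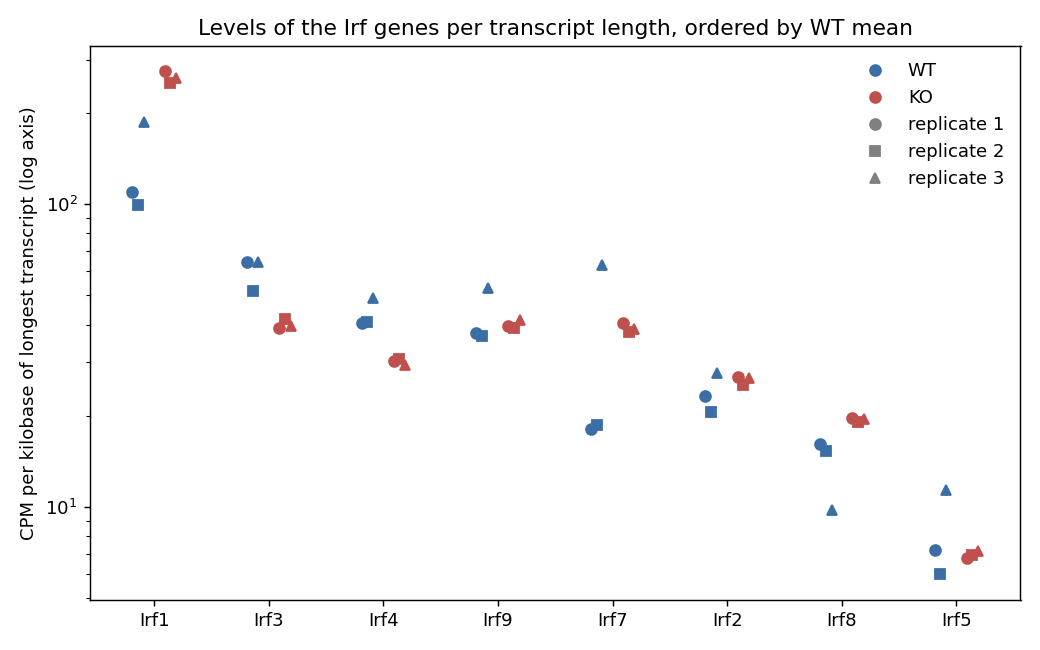
CPM per kilobase of the longest transcript (log axis) of each IRF gene, ordered by the WT mean, with WT in blue, KO in red and a marker shape for each replicate. Irf1 is at the top in both genotypes, and the KO samples of Irf3, Irf9 and Irf7 lie at the same height, near 40 CPM per kilobase. With the mean transcript length, Irf3, Irf9 and Irf7 took places 5, 4 and 2 in KO.

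Among the 10 partners and cofactors of IRFs, Batf2 and Spi1 were called higher and Irf2bpl lower, beside 11.9% and 12.5% of all genes. The number called higher was 5 without WT replicate 3 (13.6% of all genes in that fit) and 1 without KO replicate 1 or 3. Batf2 had no count in WT and 1.24 ± 0.32 CPM in KO, at least 13.5-fold higher when WT is set to a floor of 3 counts per library. Spi1 was at 0.788, 1.46 and 0.631 CPM in WT, against 2.46, 1.92 and 2.58 CPM in KO (log2 change 1.27 with an SE of 0.40, adjusted p 0.0385). Of the 15 myeloid and dendritic cell markers above, 9 were called higher and 6 were not called. The part of such cells in the Spi1 values was not tested. Irf2bpl, an IRF2-binding protein, fell from 107.8, 120.0 and 149 CPM to 49.5, 54.2 and 57.3 CPM (log2 change -1.23 with an SE of 0.13, adjusted p 0.00034), while Irf2bp1 (-0.46) and Irf2bp2 (0.06) were not called. Batf, the partner of Irf4 in T cells, was at 52.9, 62.0 and 66.2 CPM in WT, against 83.1, 84.3 and 91.1 CPM in KO, without overlap but below the cutoff (log2 change 0.51 with an SE of 0.10, adjusted p 0.0044).

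Stat2, a partner of Irf9 in ISGF3, was at 113, 110.3 and 206.5 CPM in WT, against 203, 206 and 199.0 CPM in KO (log2 fold change 0.50, adjusted p 0.121). WT replicate 3 was the highest sample. Without it Stat2 was called higher, at 0.85 (adjusted p 1.13e-08).

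Receptors and kinases upstream of the IRFs moved in different directions. Of 7 interferon receptor and Janus kinase genes, Ifngr1 and Jak2 were called higher and Ifnar2 lower. For this list and the next, the shares of all genes were 11.9% called higher and 12.5% lower. Ifngr1, the ligand-binding chain of the interferon-gamma receptor, was at 128, 134 and 235 CPM in WT, against 410.1, 374 and 384 CPM in KO (log2 change 1.23 with an SE of 0.22, adjusted p 0.00364). Jak2 was at 152, 167 and 206 CPM in WT, against 325.6, 325.6 and 324 CPM in KO (log2 change 0.89 with an SE of 0.11, adjusted p 0.000721). Ifnar2, a chain of the type I interferon receptor, was at 84.1, 81.3 and 78.0 CPM in WT, against 49.2, 44.7 and 45.1 CPM in KO (log2 change -0.81 with an SE of 0.07, adjusted p 0.000205), and the other chain, Ifnar1, was at -0.34 and not called. The second interferon-gamma receptor chain, Ifngr2, had a log2 fold change of -0.56 and was not called either. Of 16 sensor, adaptor and kinase genes, the Toll-like receptor adaptor Myd88 was called higher (log2 fold change 0.63, adjusted p 0.00196, not called without WT replicate 1) and Ikbke, a kinase of Irf3 and Irf7, was called lower. Ikbke was at 543, 480 and 530.5 CPM in WT, against 326, 318 and 302.5 CPM in KO (log2 change -0.71 with an SE of 0.07, adjusted p 0.000355). Neither Myd88 nor Ikbke was called under glmTreat, and 2 genes of this list were called higher without WT replicate 3 (13.6% of all genes in that fit). Tbk1, the other kinase of these factors, was at 0.03 (adjusted p 0.812).

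Target genes were grouped by the IRF they are best known for, from lists written from general knowledge with earlier results of these data known. Of 26 genes known as targets of Irf1 and interferon-gamma, 12 were called higher (against 11.9% of all genes) and none lower, all 26 had a log2 fold change above 0 (0.14 to 2.80), and the list had a median log2 fold change of 0.63 beside -0.04 over all genes. Their summed level was 3884, 3891 and 5141 CPM in WT, against 6957, 6874 and 6953 CPM in KO. WT replicate 3 was above the other WT samples and below the KO samples, as for Irf1. The GTPase gene Gbp2 rose from 93.4 ± 32.04 to 487 ± 16.0 CPM (log2 fold change 2.38, adjusted p 0.000202), the inflammatory caspase Casp1 from 4.94 ± 0.57 to 24.0 ± 0.95 CPM (2.28, adjusted p 2.5e-05), the GTPase Iigp1 from 52.9 ± 27.8 to 201 ± 7.26 CPM (1.93, adjusted p 0.00257) and the receptor chain Il12rb1 from 58.5 ± 2.75 to 129 ± 3.45 CPM (1.14, adjusted p 3.1e-05). Without WT replicate 3, 18 of the 26 were called higher, beside 13.6% of all genes, and the median was 1.11. Under glmTreat 7 were called higher. Of the markers given above, 9 of 15 for myeloid and dendritic cells and 4 of 6 for NK and CD8 T cells were also called higher. The part of such cells in these values was not tested.

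Of 26 antiviral genes known as targets of ISGF3, 4 were called higher (Oas3, Oasl2, Parp9 and Zbp1) (11.9% of all genes were called higher) and none lower by edgeR, none was lower at an unadjusted p under 0.05 or by DESeq2, with a median log2 fold change of 0.29. Their summed level was 1091, 1065 and 2656 CPM in WT, against 2053, 2026 and 2010 CPM in KO. The KO samples lay between WT replicates 1 and 2 and WT replicate 3, and 20 of the 26 genes (76.9%) showed this order, against 4.49% of all genes tested. Isg15, which encodes a ubiquitin-like antiviral protein, was at 11.8, 16.2 and 62.0 CPM in WT, against 47.5, 50.4 and 50.2 CPM in KO (log2 change 0.72 with an SE of 0.55, adjusted p 0.336). Without WT replicate 3, 19 of the 26 were called higher and the median was 0.95, whereas without any of the other 5 samples none was called in either direction. In the fit without WT replicate 3, 13.6% of all genes were called higher. Irf2, Irf7 and Irf9 were also picked by having the KO samples between WT replicates 1 and 2 and WT replicate 3. Their sharing that order with these 20 antiviral genes is therefore no separate result. Irf2 met it narrowly (109.6 CPM in WT replicate 3, 106.3 CPM in KO replicate 1). Irf1 had the order of the summed interferon-gamma targets, for which no share of all genes is given here. Whether these factors act on the listed genes in these cells was not tested.

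**Figure D5:**
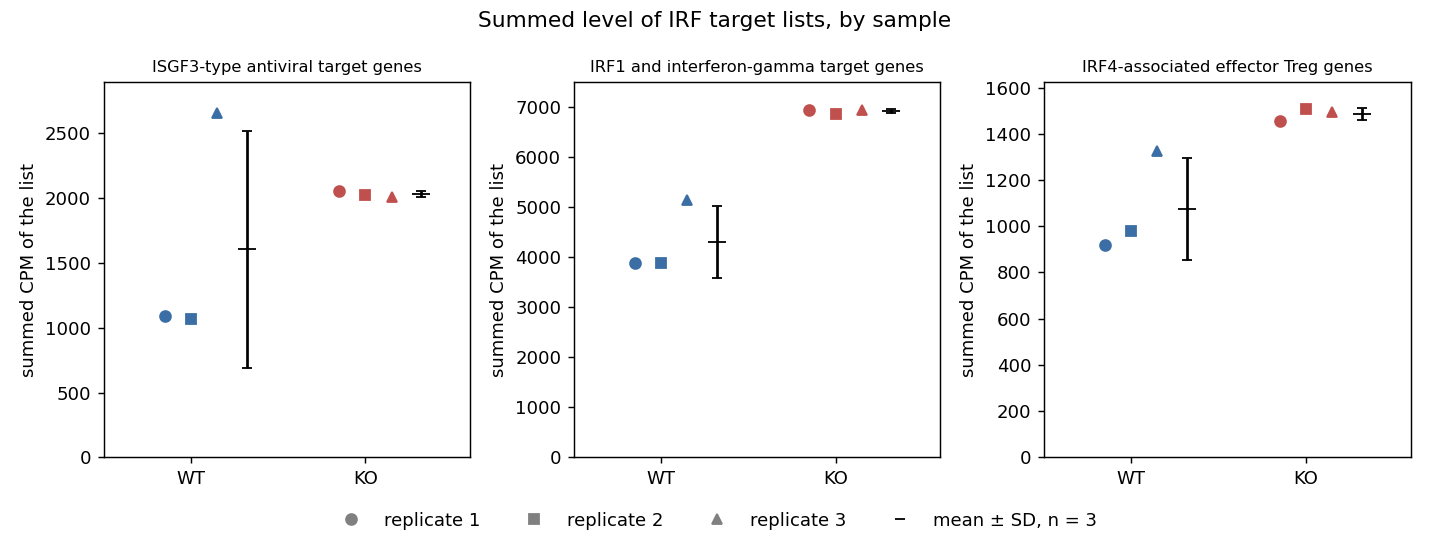
Summed CPM per sample of 3 lists of IRF target genes, with WT in blue, KO in red, a marker shape for each replicate and the mean ± SD (n = 3) as a black bar. WT replicate 3 is above all KO samples for the antiviral genes (2656 against 2010 to 2053 CPM) and below all of them for the interferon-gamma targets and the effector Treg genes. In the effector Treg list, Gzmb alone held 437 to 446 CPM of each KO sum. WT replicate 3 was above every KO sample in 9 of the 14 genes of that list.

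Of 14 genes associated with Irf4 in effector Tregs, 2 were called higher and 4 lower, with a median log2 fold change of -0.05. Over all genes tested, 11.9% were called higher and 12.5% lower. When WT replicate 3 was left out, 4 were called higher (Il10 and Nfil3 in addition) and 4 lower, and the median turned to 0.28. In that fit 13.6% of all genes were called higher and 26.8% in either direction. With the replicate block the median was 0.11. Gzmb, which encodes granzyme B, rose from 12.1, 12.2 and 36.8 CPM to 437, 446 and 438 CPM (log2 fold change 4.44, adjusted p 0.000316), and Il1rl1, the IL-33 receptor, rose from 55.7 ± 4.44 to 89.0 ± 2.69 CPM (0.68, adjusted p 0.000597). The chemokine receptor genes Ccr6 (-2.08) and Ccr8 (-1.24), the repressor Bcl6 (-1.51) and the inhibitory receptor Klrg1 (-0.96) fell. Prdm1, which encodes Blimp-1, was at 27.0, 26.5 and 59.1 CPM in WT, against 42.2, 35.5 and 40.9 CPM in KO (log2 fold change 0.08, adjusted p 0.867), and Icos was at 0.26 (adjusted p 0.223). Prdm1 was at 0.56 (adjusted p 0.000143) and Icos at 0.47 (adjusted p 4.47e-06) without WT replicate 3, both below the fold cutoff. The genes of this list moved in both directions while Irf4 itself was lower by less than the cutoff.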

How the data were processed

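Tregs (CD4+YFP+CD25+) of 3 WT and 3 KO mice or pools were profiled by RNA-Seq. The deposited table holds whole-number counts per gene made by the authors. The labels and methods name SOAPnuke for read filtering, HISAT2 alignment to mm10 and StringTie, but the counting step, its strand setting and its versions were not given in the sources used here. Of the 13709 gene rows, which carry 13680 different symbols, none had a sum under 60 counts, so genes of lower count were not in the table.

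The 8 members and all gene lists were chosen with earlier results of these data known. In edgeR 4.0.16 (R 4.3.3), genes were filtered with filterByExpr at a minimum count of 10 (115 removed, 13594 tested), scaled by TMM, and tested with the quasi-likelihood F test of KO against WT over all 6 samples without covariates. A gene was called at a fold change above 1.5, a p under 0.05 and a Benjamini-Hochberg adjusted p under 0.1. SEs were derived from the fold change and the F statistic. A total of 3 counts equals 0.0747 to 0.0913 CPM, and floors cover counting error only. Lists were described by counts and medians. Fold changes were checked in DESeq2 1.42.0, under RLE scaling and library totals, with other filters and cutoffs, with a replicate block and without each sample. Same-numbered samples did not deviate together (correlations 0.0377, 0.0404 and -0.0116), so they were not treated as pairs.

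Named genes were the members, Zfp335, any tested gene of the partner, receptor and sensor lists, up to 4 called genes with the largest rise and 4 with the largest fall in each target list (mean of at least 5 CPM in either genotype), the further genes Isg15, Gbp2, Prdm1 and Icos, the called or uncounted markers of other cells, and for each member the 2 genes of most similar profile. Promoter sequences are those of RefSeq (GRCm38.p6). Some genes covered by this rule are not reported here.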

Additional observations from a re-analysis of the deposited data

How the results depend on the processing

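Irf1 was called higher under DESeq2, RLE scaling, library totals, both other filters, the replicate block, the GC content and length offsets (chosen after seeing the data) and without each sample. Of 135 values of the members and Zfp335 under these alternatives and cutoffs, 7 passed the cutoffs only under the alternative, 1 (Irf1 under glmTreat) no longer passed, 4 reversed and the others kept their direction and side of the cutoffs. Leaving out each sample gave Irf7 -0.060 to 1.08, with -0.060 without WT replicate 1 and -0.053 without WT replicate 2, Irf5 -0.42 to 0.072 and Irf9 -0.18 to 0.11, the highest values of all 3 without WT replicate 3. Leaving out samples gave 1 to 2 members called higher and 0 to 1 lower, and 2867 to 3667 genes called. With an adjusted p under 0.05 and no fold cutoff, 5244 genes were called (2610 higher, 2634 lower) and 2 members lower (Irf3 and Irf4). With glmTreat, 1686 were called (941 higher, 745 lower) and 0 members higher. With library totals 1 member was lower (Irf3). The replicate block gave 3190 calls, 3100 of them shared with the 3318 of the unblocked fit, and changed no member's call, with Irf7 at 0.51 (adjusted p 0.328). The numbers did not pair the samples. With the mean length of all transcripts, 4 of 8 members kept their place in the WT order, and in KO Irf3 moved from place 2 to place 5. The cause of these changes was not tested. With 3 samples per genotype, the intervals of Irf7, Irf5 and Irf1 are wide.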

Other observations

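For each member, the genes of most similar profile were found among the other tested genes averaging 5 CPM or more, as the smallest Euclidean distance between centred log2 CPM values over the 6 samples. These 6 samples share their libraries and depth, so the distances are descriptions. Irf1 was nearest to Atp10a (0.173) and Spef2 (0.214), Irf3 to Sh2b1 (0.108) and Phf21a (0.121), and Irf7 to Csrnp1 (0.199) and Il10 (0.275). Il10, which encodes an anti-inflammatory cytokine of Tregs, was at 11.8, 12.1 and 35.0 CPM in WT and 22.0, 21.6 and 21.2 CPM in KO, with WT replicate 3 the highest as for Irf7. Irf9 was nearest to Gclc (0.0425) and Il2ra (0.0871). Irf4 was nearest to Senp7 and Tmem87b, Irf8 to Slc7a1 and Timeless, Irf2 to Osgin2 and H2-Q9, and Irf5 to Ubl3 and Apobec3. Among the members themselves, Irf3 and Irf4 were close (0.268), as were Irf2 and Irf9 (0.314), whereas Irf1 was no nearer than 1.03 to any other member.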
